A study of Homo sapiens with 16 samples.

Results

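A set of 10 genes that mark epithelial and mesenchymal states of a cell was followed through all 8 groups of the study. The genes were chosen with earlier results of these data known and taken by name from the gene table. They were CDH1, EPCAM, KRT8 and KRT19 on the epithelial side and SNAI2, ZEB1, CDH2, VIM, DCN and MRC2 on the mesenchymal side, 10 of 60612 genes listed. The cells were NCI-H1944, a human lung adenocarcinoma line, in 4 versions labelled STING/MAVS knockout (DKO), MAVS knockout, STING knockout, and WT for the control (SCR). Cells of each version received BAY-1217389, an inhibitor of MPS1 (MPS1i), at 100 nM for 48 h followed by 24 h without drug, or DMSO, with 2 libraries per group and 16 in all. The labels ask how far the transcriptional response to this drug pulse needs STING, MAVS or the pair of them. All cells shared the same RPMI medium with serum, penicillin, streptomycin and plasmocin. Whether each line is 1 clone or a pool, and whether replicates were separate cultures, is not given in the sources used here, so the p-values speak to the spread among the libraries at hand, which may be technical.

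Epithelial cells hold to each other through E-cadherin and desmosomes and carry keratin filaments. In the epithelial-mesenchymal transition, transcription factors of the SNAI, ZEB and TWIST families bind E-box sequences in the promoters of epithelial genes and repress them, and the cell takes on N-cadherin, vimentin and matrix proteins. Carcinoma cells often hold genes of both states at once, and signalling by TGF-beta is a well-known inducer of the shift. Blocking MPS1, which delays anaphase until chromosomes are attached, lets chromosomes missegregate. STING relays cytosolic DNA and MAVS relays cytosolic RNA to interferon production.

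Total counts per library ran from 19893784 to 49769938. The labels were checked on the targeted transcripts under DMSO. The STING transcript averaged 4.86 ± 0.0461 CPM in the DKO-labelled line and 3.74 ± 0.0573 CPM in the STING-labelled line, against 8.27 ± 0.0317 CPM in SCR (SD, n = 2 each), and it was lower in both (adjusted p = 3.98e-06 and 2.1e-07, edgeR quasi-likelihood test). The MAVS transcript did not serve as such a check. It averaged 215 ± 9.83 CPM in the DKO-labelled line and 195 ± 0.890 CPM in the MAVS-labelled line, against 186 ± 4.28 CPM in SCR. It was higher in the DKO-labelled line (adjusted p = 0.000894) and not called in the MAVS-labelled line (adjusted p = 0.436, both edgeR). It was thus lower in neither, and whether MAVS was disrupted cannot be read from its transcript level. The lines are named by their labels below. CPM are read counts scaled to a common library size, with totals adjusted by the TMM method. TTK, the gene of MPS1, fell after the pulse in all 4 lines, by 0.74 to 0.94 on the log2 scale. Of 18 lung epithelial markers, 7 had a median of at least 1 CPM, among them FOXA1 at 62.2, MUC5B at 79.8, and the alveolar type II genes LPCAT1 at 261 and ABCA3 at 3.96 CPM. Other alveolar markers were near 0: NKX2-1 was at 0 in 13 of 16 libraries, SFTPA1 in all 16, and NAPSA did not pass 0.378 CPM.

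Transcripts of both states were present in every library. Per kilobase of exon, averaged over the 16 libraries, the order of levels was KRT8 at 255 CPM per kb, VIM at 43.9, ZEB1 at 10.9, CDH1 at 8.62, SNAI2 at 4.57, CDH2 at 2.68, DCN at 1.38, EPCAM at 1.34, MRC2 at 1.19 and KRT19 at 0.0086. That order depends on exon length merged over all annotated transcripts, 12847 bases for DCN against 3392 for SNAI2 and 4950 for CDH2. By mean CPM alone, DCN (17.7) stood above SNAI2 (15.5) and CDH2 (13.3). KRT19, a keratin of simple epithelia, had 10 reads in all 16 libraries together and 0 in 11 of them. A count of 0 has an upper 95% bound of about 3 reads, which stand for 0.0608 to 0.152 CPM in these libraries (counting error only). The highest level of KRT19 was 0.113 CPM, from 4 reads in replicate 1 of SCR after MPS1i, where 3 reads stand for 0.0844 CPM. KRT19 did not pass the filter on low counts and was not tested, so 9 of the 10 genes were. The epithelial label thus rested on CDH1 and KRT8, with EPCAM low and KRT19 nearly absent.

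The same split ran through a wider list of 44 epithelial genes. Of these, 25 had a median of at least 10 CPM, among them the keratin partner KRT18 at 961 CPM, the desmosome genes DSP at 523 and DSG2 at 445 CPM, and the catenin CTNNA1 at 644 CPM. Another 13 had a median under 1 CPM. These included GRHL2 at 0.0353 CPM and OVOL1 at 0, transcription factors that keep cells epithelial, the splicing regulator ESRP2 at 0, and the vesicle GTPase RAB25 at 0. ESRP1, a related splicing regulator, had a median of 0.193 CPM over all libraries, but under DMSO it averaged 0.193 ± 0.00219 CPM in the DKO-labelled line, 0.965 ± 0.141 in the MAVS-labelled line and 0.452 ± 0.117 in the STING-labelled line, against 1.503 ± 0.205 CPM in SCR (SD, n = 2 each). The log2 change of ESRP1 from DMSO to MPS1i was more positive in the DKO-labelled line than in SCR. The difference was 3.72 ± 0.72 (SE, adjusted p = 0.000276, edgeR). It was 0.67 in the MAVS-labelled line and 0.33 in the STING-labelled line, neither called. ESRP1 had 242 reads in all 16 libraries together. Of 40 further mesenchymal genes, 21 had a median of at least 10 CPM and 10 were under 1 CPM. These named genes were chosen after their levels were seen.

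**Figure D1:**
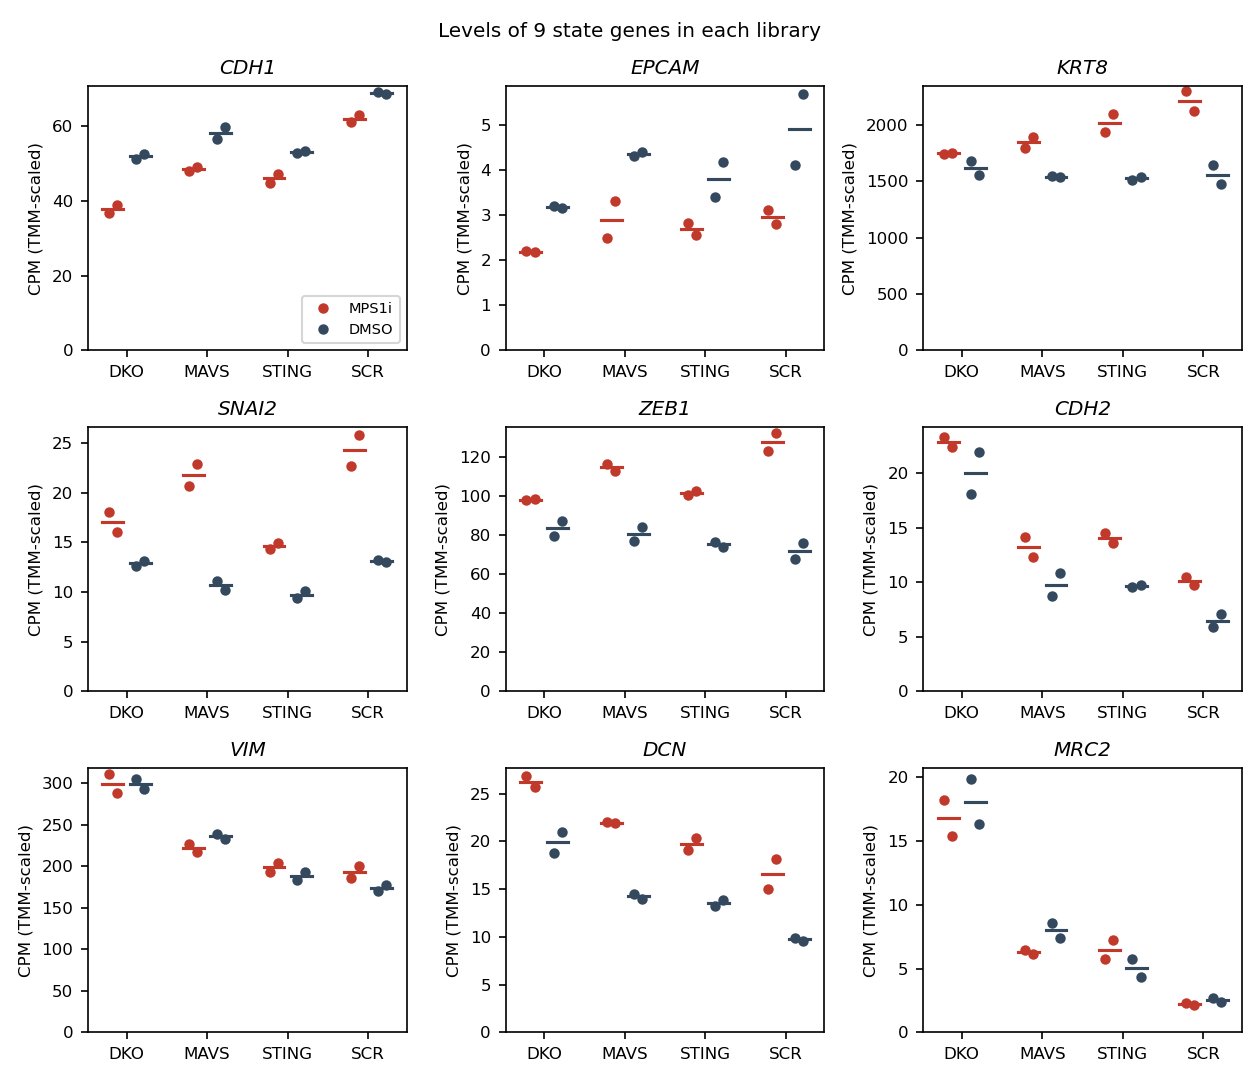
Level of 9 of the 10 genes in each library, in CPM on TMM-scaled totals (vertical axis, from 0), by line (DKO, MAVS, STING and SCR labels), with MPS1i in red and DMSO in dark blue. Points are libraries and bars are means of 2. CDH1 is lower after MPS1i than after DMSO in each line, SNAI2, ZEB1 and DCN are higher in each line, and MRC2 sits at 15.4 to 19.8 CPM in the DKO-labelled line against 2.19 to 2.72 CPM in SCR under either treatment.

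The first comparison asked what the pulse did within each line. CDH1 fell and SNAI2, ZEB1 and DCN rose in all 4 lines. KRT8, an epithelial keratin, rose rather than fell in 3 lines, CDH2 rose in the same 3, and MRC2 was called in none. For the DKO-labelled line, 4 of 9 tested genes passed an adjusted p of 0.05, against a background of 14.8% of all 17950 tested genes. The number was 7 of 9 in the MAVS-labelled line (background 33.4%), 6 of 9 in the STING-labelled line (background 29.4%) and 8 of 9 in SCR (background 50%). Over all 4 lines, 3 of the 9 rose in every one, against 3.69% of tested genes, and 1 fell in every one, against 4.51%. The members and lists were chosen with earlier results of these data known. Counts beside a background, here and below, therefore describe the set and are no test. The median log2 fold change of the 9 was 0.11 in the DKO-labelled line, 0.26 in the MAVS-labelled line, 0.40 in the STING-labelled line and 0.50 in SCR, while the median of all tested genes lay between 0.0024 and 0.031. Treatments that did not overlap were common in this table, at 50.5%, 67%, 63.9% and 74.4% of tested genes in the same order of lines. In bulk RNA, fewer cells with a transcript and less of it per cell cannot be told apart.

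CDH1 (GRCh38 chr16:68737292-68835537, plus strand) encodes E-cadherin, the adhesion molecule of adherens junctions. It had 36.7 and 38.9 CPM after MPS1i, against 51.2 and 52.5 CPM after DMSO in the DKO-labelled line, and 47.8 and 49.1 CPM after MPS1i, against 56.4 and 59.7 CPM after DMSO in the MAVS-labelled line. It had 44.8 and 47.3 CPM after MPS1i, against 52.8 and 53.4 CPM after DMSO in the STING-labelled line, and 60.95 and 62.8 CPM after MPS1i, against 69.04 and 68.5 CPM after DMSO in SCR. Both libraries after MPS1i lay below both after DMSO in each line, and the DKO-labelled libraries after MPS1i were the lowest of all 16. The log2 fold change was -0.46 ± 0.059 (SE) in the DKO-labelled line, -0.26 ± 0.057 in the MAVS-labelled line, -0.20 ± 0.059 in the STING-labelled line and -0.15 ± 0.054 in SCR. The adjusted p was 2.94e-06, 0.000928, 0.0101 and 0.0212 in the same order (edgeR). The call in SCR was lost without any 1 of the 4 SCR libraries, at -0.12 to -0.16. That in the STING-labelled line was lost without replicate 2 of DMSO (-0.20) or replicate 1 of MPS1i (-0.17).

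EPCAM (chr2:47345158-47387601, plus strand), a surface glycoprotein of epithelia, was low throughout. It had 2.21 and 2.18 CPM after MPS1i, against 3.21 and 3.16 CPM after DMSO in the DKO-labelled line, and 2.50 and 3.31 CPM after MPS1i, against 4.33 and 4.41 CPM after DMSO in the MAVS-labelled line. Values were 2.82 and 2.56 CPM after MPS1i, against 3.41 and 4.18 CPM after DMSO in the STING-labelled line, and 3.12 and 2.80 CPM after MPS1i, against 4.12 and 5.69 CPM after DMSO in SCR. The treatments did not overlap in any line. EPCAM fell in SCR, with a log2 fold change of -0.72 ± 0.17 (adjusted p = 0.00117), and in the MAVS-labelled line, with -0.58 ± 0.19 (adjusted p = 0.0175). The value for the DKO-labelled line was -0.54 ± 0.20 and in the STING-labelled line -0.49 ± 0.20, with adjusted p of 0.076 and 0.0656. Both calls rested on single libraries: without replicate 2 of SCR under DMSO the value was -0.48 and not called. The MAVS-labelled call was lost without either DMSO replicate (-0.62 and -0.57), without replicate 1 of MPS1i (-0.40) and in DESeq2 (adjusted p = 0.0604).

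KRT8 (chr12:52897187-52949954, minus strand), which pairs with KRT18 in the filaments of simple epithelia, was the most abundant of the 10. It had 1743 and 1754 CPM after MPS1i, against 1681 and 1555 CPM after DMSO in the DKO-labelled line, and 1796 and 1896 CPM after MPS1i, against 1543 and 1539 CPM after DMSO in the MAVS-labelled line. It had 1934 and 2093 CPM after MPS1i, against 1514 and 1539 CPM after DMSO in the STING-labelled line, and 2303 and 2119.6 CPM after MPS1i, against 1643 and 1474 CPM after DMSO in SCR. Under DMSO each labelled line overlapped SCR, with both DKO-labelled libraries above the MAVS-labelled and STING-labelled ones, whereas after MPS1i the lines were ordered SCR, STING, MAVS and DKO from high to low with no overlap between neighbours. KRT8 rose by a log2 fold change of 0.26 ± 0.054 in the MAVS-labelled line, 0.40 ± 0.054 in the STING-labelled line and 0.50 ± 0.054 in SCR (adjusted p = 0.000505, 3.54e-06 and 2.6e-08). The DKO-labelled value was 0.11 ± 0.054, with an adjusted p of 0.183.

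Among the transcription factors, SNAI2 (Slug), a zinc finger repressor of CDH1, had 18.01 and 16.04 CPM after MPS1i, against 12.6 and 13.2 CPM after DMSO in the DKO-labelled line, and 20.7 and 22.8 CPM after MPS1i, against 11.1 and 10.2 CPM after DMSO in the MAVS-labelled line. It had 14.3 and 14.9 CPM after MPS1i, against 9.36 and 10.1 CPM after DMSO in the STING-labelled line, and 22.7 and 25.8 CPM after MPS1i, against 13.3 and 13.01 CPM after DMSO in SCR. In each line both MPS1i libraries were above both DMSO libraries. The log2 fold change was 0.41 ± 0.094 in the DKO-labelled line, 1.02 ± 0.10 in the MAVS-labelled line, 0.59 ± 0.10 in the STING-labelled line and 0.89 ± 0.086 in SCR. The adjusted p was 0.00339, 3.67e-09, 9.05e-05 and 3.05e-09 in that order. In the DKO-labelled line the call was lost without replicate 1 of MPS1i (0.32).

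ZEB1 (chr10:31318495-31529814, plus strand), a zinc finger and homeodomain repressor of epithelial genes, had 97.9 and 98.3 CPM after MPS1i, against 79.8 and 87.3 CPM after DMSO in the DKO-labelled line, and 117 and 113 CPM after MPS1i, against 76.8 and 84.02 CPM after DMSO in the MAVS-labelled line. It had 101 and 103 CPM after MPS1i, against 76.5 and 73.9 CPM after DMSO in the STING-labelled line, and 123 and 132 CPM after MPS1i, against 67.9 and 75.97 CPM after DMSO in SCR. All 8 libraries after MPS1i were above all 8 after DMSO, and SCR held both the highest MPS1i level and the lowest DMSO level. The rise measured 0.23 ± 0.061 in the DKO-labelled line, 0.51 ± 0.061 in the MAVS-labelled line, 0.43 ± 0.062 in the STING-labelled line and 0.83 ± 0.059 in SCR, all as log2 fold change. The adjusted p was 0.0102, 2.07e-07, 5.65e-06 and 8.82e-12 in that order. In the DKO-labelled line the call was lost without replicate 1 of DMSO (0.17) or replicate 1 of MPS1i (0.24).

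SNAI and ZEB proteins bind an E-box that reads CAGGTG, or CACCTG on the other strand. RefSeq promoter sequences (GRCh38.p14, 250 bases before to 50 after a start) were at hand for 4 of the 10 genes, with 7 starts for ZEB1, 2 for CDH2 and 1 each for VIM and KRT8. CDH1, EPCAM, KRT19, SNAI2, MRC2 and DCN had no entry used here. CAGGTG on either strand was found in 20.6% of all 35116 promoter entries, and the wider E-box CANNTG, which contains it, in 68.7%. Of the 7 ZEB1 entries, 2 held CAGGTG. The KRT8 entry, the only one of an epithelial member, had 0 matches to CAGGTG and 3 to the wider E-box. The ZEB1 entry with 3 CAGGTG matches, at -242, -85 and 34 from the start, is shown first, with the matches in capitals. The VIM entry and 1 of the 2 CDH2 entries, with no match, follow for comparison as 2 other mesenchymal members. A match describes letters only, and the counts do not tell which start was used.
ZEB1 promoter, chr10:31318966-31319265, plus strand: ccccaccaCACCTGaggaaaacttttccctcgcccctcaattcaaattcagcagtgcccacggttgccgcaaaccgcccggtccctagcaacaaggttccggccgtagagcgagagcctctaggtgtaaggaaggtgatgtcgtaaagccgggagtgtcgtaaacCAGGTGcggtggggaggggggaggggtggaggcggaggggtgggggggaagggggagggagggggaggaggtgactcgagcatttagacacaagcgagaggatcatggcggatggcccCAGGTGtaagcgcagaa
VIM promoter, chr10:17227991-17228290, plus strand: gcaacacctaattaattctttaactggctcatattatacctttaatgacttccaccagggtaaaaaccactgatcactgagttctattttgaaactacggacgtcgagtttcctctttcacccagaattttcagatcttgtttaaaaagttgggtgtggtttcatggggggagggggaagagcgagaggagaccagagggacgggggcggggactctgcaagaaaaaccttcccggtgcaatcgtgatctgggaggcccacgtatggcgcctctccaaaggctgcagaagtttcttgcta
CDH2 promoter, chr18:28177081-28177380, minus strand: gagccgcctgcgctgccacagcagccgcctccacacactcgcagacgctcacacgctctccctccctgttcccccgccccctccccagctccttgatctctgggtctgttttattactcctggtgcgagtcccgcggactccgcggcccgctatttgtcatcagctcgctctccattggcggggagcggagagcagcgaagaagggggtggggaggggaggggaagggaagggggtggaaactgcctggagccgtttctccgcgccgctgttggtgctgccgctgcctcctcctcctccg

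CDH2 (chr18:27932879-28177946, minus strand) encodes N-cadherin, the cadherin that replaces CDH1 in the classic switch. It had 23.3 and 22.4 CPM after MPS1i, against 18.1 and 21.9 CPM after DMSO in the DKO-labelled line, and 14.2 and 12.3 CPM after MPS1i, against 8.69 and 10.9 CPM after DMSO in the MAVS-labelled line. It had 14.5 and 13.6 CPM after MPS1i, against 9.57 and 9.73 CPM after DMSO in the STING-labelled line, and 10.5 and 9.72 CPM after MPS1i, against 5.88 and 7.05 CPM after DMSO in SCR. No line showed overlap between treatments, although in the DKO-labelled line the gap was smaller than the distance between its DMSO replicates. CDH2 rose by a log2 fold change of 0.45 ± 0.12 in the MAVS-labelled line, 0.54 ± 0.12 in the STING-labelled line and 0.65 ± 0.12 in SCR (adjusted p = 0.00452, 0.00145 and 5.27e-05). The DKO-labelled line gave 0.19 ± 0.11 (adjusted p = 0.258). The MAVS-labelled call was lost without replicate 1 of DMSO (0.26) or replicate 1 of MPS1i (0.35).

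VIM (chr10:17228241-17237593, plus strand), the intermediate filament vimentin, was called after the pulse in SCR only. It had 312 and 288 CPM after MPS1i, against 305 and 294 CPM after DMSO in the DKO-labelled line, and 227 and 217 CPM after MPS1i, against 239 and 233 CPM after DMSO in the MAVS-labelled line. It had 193 and 204 CPM after MPS1i, against 183 and 193 CPM after DMSO in the STING-labelled line, and 187 and 201 CPM after MPS1i, against 170.1 and 177 CPM after DMSO in SCR. The treatments overlapped in the DKO-labelled line, and MPS1i lay below DMSO in the MAVS-labelled line. VIM rose in SCR with a log2 fold change of 0.16 ± 0.051 (adjusted p = 0.0116), and lost the call without replicate 1 of DMSO (0.13) or replicate 2 of MPS1i (0.12). The other values were 0.0033 ± 0.051 in the DKO-labelled line, -0.089 ± 0.051 in the MAVS-labelled line and 0.080 ± 0.052 in the STING-labelled line.

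DCN (chr12:91140484-91183217, minus strand) encodes decorin, a small proteoglycan that binds collagen and TGF-beta. It had 26.8 and 25.6 CPM after MPS1i, against 18.7 and 21.01 CPM after DMSO in the DKO-labelled line, and 22.03 and 21.9 CPM after MPS1i, against 14.5 and 14.00 CPM after DMSO in the MAVS-labelled line. It had 19.1 and 20.3 CPM after MPS1i, against 13.2 and 13.9 CPM after DMSO in the STING-labelled line, and 15.05 and 18.1 CPM after MPS1i, against 9.89 and 9.57 CPM after DMSO in SCR. The MPS1i libraries were above the DMSO libraries in each line. DCN rose by a log2 fold change of 0.40 ± 0.087 in the DKO-labelled line, 0.62 ± 0.092 in the MAVS-labelled line, 0.54 ± 0.10 in the STING-labelled line and 0.77 ± 0.091 in SCR. The adjusted p was 0.00206, 6.35e-06, 9.4e-05 and 8.88e-08 in that order, and no single library decided a call.

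MRC2 (chr17:62627670-62693597, plus strand), the endocytic collagen receptor Endo180, showed no pulse effect that passed. It had 18.2 and 15.4 CPM after MPS1i, against 19.8 and 16.4 CPM after DMSO in the DKO-labelled line, and 6.47 and 6.14 CPM after MPS1i, against 8.58 and 7.41 CPM after DMSO in the MAVS-labelled line. It had 5.76 and 7.24 CPM after MPS1i, against 5.75 and 4.38 CPM after DMSO in the STING-labelled line, and 2.31 and 2.19 CPM after MPS1i, against 2.72 and 2.40 CPM after DMSO in SCR. MPS1i was the lower treatment in SCR and the MAVS-labelled line and the higher one in the STING-labelled line; the treatments overlapped in the DKO-labelled line and nearly met in the STING-labelled line. The log2 fold change was -0.10 ± 0.13, -0.35 ± 0.15, 0.35 ± 0.16 and -0.20 ± 0.18 in the DKO-labelled, MAVS-labelled and STING-labelled lines and SCR, with adjusted p of 0.685, 0.0677, 0.103 and 0.379. Without replicate 1 of DMSO the STING-labelled value passed (0.57). The MAVS-labelled value passed without a filter on low counts (-0.36) and without replicate 1 (-0.38) or 2 (-0.35) of the DKO-labelled line under DMSO.

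**Figure D2:**
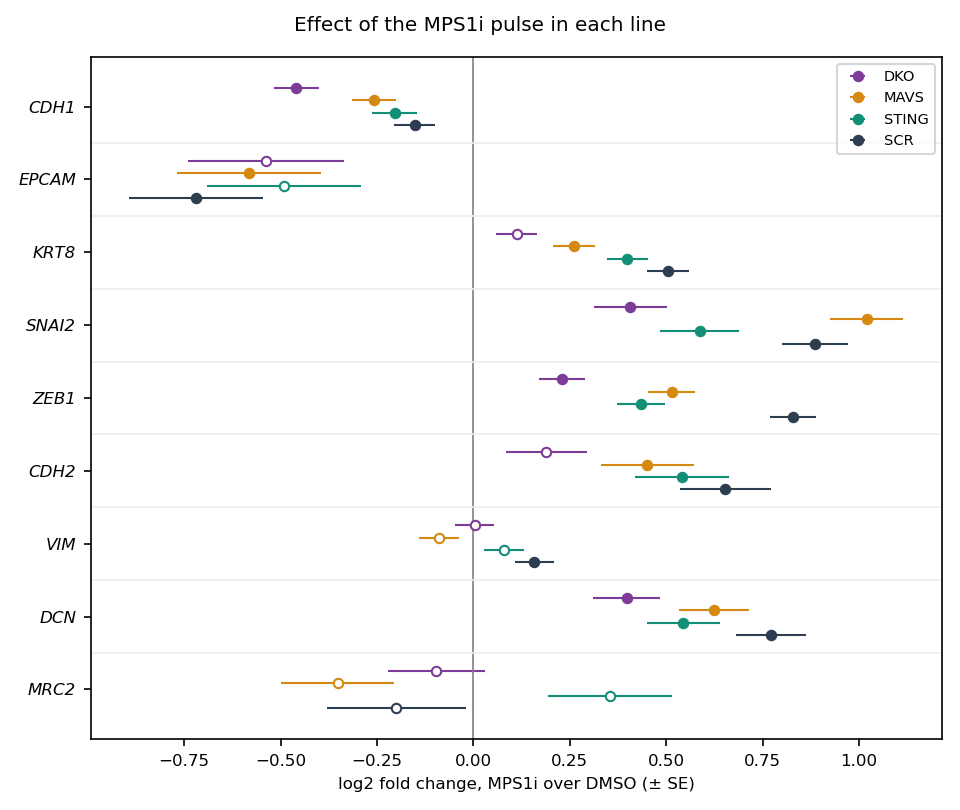
Log2 fold change of MPS1i over DMSO (horizontal axis, ± SE) for 9 genes in the DKO-labelled, MAVS-labelled and STING-labelled lines and SCR, from top to bottom within each gene. Filled points passed an adjusted p of 0.05 and open points did not. CDH1 lies left of 0 in each line, from -0.46 in the DKO-labelled line to -0.15 in SCR, while ZEB1 lies right of 0, from 0.23 to 0.83.

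The second comparison set each labelled line against SCR under the same treatment. CDH1 was lower, and CDH2, DCN and MRC2 higher, in each labelled line under both treatments, with the largest values in the DKO-labelled line. The comparisons of one treatment share the 2 SCR libraries and are therefore not independent of each other. Under DMSO, 7 of 9 genes passed in the DKO-labelled line (background 31.1%), 5 of 9 in the MAVS-labelled line (background 6.56%) and 5 of 9 in the STING-labelled line (background 10.2%). After MPS1i the numbers were 8 of 9 (background 45.1%), 6 of 9 (background 15.9%) and 6 of 9 (background 33.1%).

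MRC2 differed most. From the library values above, the DKO-labelled line had 15.4 to 19.8 CPM under either treatment, against 2.19 to 2.72 CPM in SCR, with the MAVS-labelled and STING-labelled lines between them. Under DMSO its log2 fold change over SCR was 2.81 ± 0.15 in the DKO-labelled line, 1.64 ± 0.16 in the MAVS-labelled line and 0.98 ± 0.17 in the STING-labelled line (adjusted p = 1.23e-13, 2.8e-07 and 0.000354). After MPS1i the values were 2.91 ± 0.15, 1.49 ± 0.16 and 1.54 ± 0.17 in that order (adjusted p = 2.29e-14, 1.88e-07 and 5.53e-08). Its highest group mean was 8.06 times its lowest, the widest range of the 9 genes, against 1.45 times for KRT8, the narrowest.

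CDH2 was also highest in the DKO-labelled line. Its log2 fold change over SCR under DMSO was 1.65 ± 0.11 in the DKO-labelled line, 0.59 ± 0.13 in the MAVS-labelled line and 0.59 ± 0.13 in the STING-labelled line (adjusted p = 2.63e-11, 0.00487 and 0.00322). After MPS1i it was 1.18 ± 0.11, 0.39 ± 0.11 and 0.48 ± 0.11 (adjusted p = 1.62e-09, 0.0159 and 0.00185). Both DKO-labelled groups stood above every library of the other 3 lines. The calls of the MAVS-labelled and STING-labelled lines under DMSO were lost without replicate 1 of SCR (0.46 and 0.45), and the MAVS-labelled one also without its own replicate 2 (0.44). After MPS1i the MAVS-labelled call was lost without replicate 2 of SCR (0.32) or its own replicate 1 (0.29).

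DCN was higher than in SCR under DMSO by a log2 fold change of 1.03 ± 0.091 in the DKO-labelled line, 0.55 ± 0.10 in the MAVS-labelled line and 0.47 ± 0.10 in the STING-labelled line (adjusted p = 2.24e-09, 0.00082 and 0.00227). After MPS1i the values were 0.66 ± 0.086, 0.40 ± 0.085 and 0.24 ± 0.088 (adjusted p = 5.97e-07, 0.00141 and 0.0349). The MAVS-labelled call was lost without replicate 1 of SCR after MPS1i (0.27). The STING-labelled call was lost in DESeq2 (adjusted p = 0.0958), without replicate 1 of SCR (0.11) and without its own replicate 1 (0.28) or 2 (0.20), and it was 0.38 without replicate 2 of SCR.

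DCN and MRC2 are also known from fibroblasts, so 11 markers of fibroblasts and other stroma were read beside them. Their summed level was 107 to 113 CPM after MPS1i and 127 to 139 CPM after DMSO in the DKO-labelled line, 88.96 to 89.2 and 104 to 111 CPM in the MAVS-labelled line, and 93.8 to 97.7 and 101 to 102 CPM in the STING-labelled line, against 82.3 to 82.98 CPM after MPS1i and 86.4 to 89.6 CPM after DMSO in SCR. Most of that sum was FBLN1, a matrix glycoprotein, at 52.01 to 106.8 CPM. In all, 4 of the 11 markers had a median of at least 1 CPM and were at 0 in no library. Beside FBLN1 they were LUM at 10.6 to 15.5 CPM, FAP at 5.11 to 14.1 CPM and COL1A1 at 3.16 to 8.04 CPM. Of 13 contrasts, 9 were called for FBLN1, 7 for FAP, 4 for COL1A1 and 0 for LUM (edgeR). The other 7 stayed at or below 0.378 CPM in every library, with COL1A2 at 0 in 14 of 16 libraries, DPT in 15, PDGFRA and POSTN in 8 each, THY1 in 5, PDGFRB in 3 and COL3A1 in 1. The part of these markers in the DCN and MRC2 differences was not tested.

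VIM was higher than in SCR under DMSO by a log2 fold change of 0.78 ± 0.051 in the DKO-labelled line and 0.44 ± 0.051 in the MAVS-labelled line (adjusted p = 7.01e-12 and 2.91e-06). After MPS1i it was higher by 0.63 ± 0.051 and 0.20 ± 0.051 (adjusted p = 1.28e-10 and 0.00787). The STING-labelled line gave 0.11 ± 0.052 under DMSO and 0.036 ± 0.051 after MPS1i, neither past the threshold. Levels were 288 to 312 CPM in all 4 DKO-labelled libraries against 170.1 to 201 CPM in the 4 SCR libraries. The MAVS-labelled call after MPS1i was lost without replicate 1 of SCR (0.13) or its own replicate 1 (0.17).

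CDH1 was lower than in SCR under DMSO, with a log2 fold change of -0.41 ± 0.055 in the DKO-labelled line, -0.25 ± 0.056 in the MAVS-labelled line and -0.37 ± 0.056 in the STING-labelled line (adjusted p = 2.42e-06, 0.00691 and 5.93e-05). After MPS1i the values were -0.71 ± 0.057, -0.35 ± 0.055 and -0.43 ± 0.056 (adjusted p = 1.18e-10, 3.94e-05 and 1.38e-06). No 2 neighbours in the order of the 8 groups overlapped, from 68.8 CPM in SCR under DMSO at the top to 37.8 CPM in the DKO-labelled line after MPS1i at the bottom, although STING-labelled and DKO-labelled cells under DMSO lay close, at 53.1 and 51.8 CPM. The MAVS-labelled call under DMSO was lost without replicate 1 of SCR (-0.24) or its own replicate 1 (-0.20).

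The transcription factors did not follow the order of CDH2 and MRC2. Under DMSO, SNAI2 was lower in the STING-labelled line than in SCR (-0.43 ± 0.10, adjusted p = 0.00531), a call lost without replicate 1 of the STING-labelled line (-0.38). It was -0.026 ± 0.092 in the DKO-labelled line and -0.29 ± 0.10 in the MAVS-labelled line, not called in either. ZEB1 under DMSO was higher in the DKO-labelled line (0.22 ± 0.060, adjusted p = 0.00633), but not without replicate 1 of SCR (0.14) or replicate 2 of the DKO-labelled line (0.15). After MPS1i both factors were lower than in SCR in the DKO-labelled line, with -0.50 ± 0.087 for SNAI2 and -0.38 ± 0.059 for ZEB1 (adjusted p = 3.22e-05 and 8.3e-06). They were also lower in the STING-labelled line, with -0.73 ± 0.089 and -0.33 ± 0.059 (adjusted p = 3.26e-07 and 9.56e-05). In the MAVS-labelled line after MPS1i they were -0.16 ± 0.083 and -0.15 ± 0.058, not called, although ZEB1 passed there without replicate 1 of SCR (-0.21) or either DMSO library of the DKO-labelled line (-0.15 each).

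Of the remaining epithelial genes, EPCAM was lower than in SCR in the DKO-labelled line under DMSO (-0.61 ± 0.18, adjusted p = 0.00974), a call lost without replicate 2 of SCR (-0.37), and it passed in no other line comparison. KRT8 was not called in any line under DMSO, where its log2 fold changes over SCR were 0.054, -0.016 and -0.030 in the DKO-labelled, MAVS-labelled and STING-labelled lines. After MPS1i it was lower in the DKO-labelled line (-0.34 ± 0.054, adjusted p = 1.29e-05) and the MAVS-labelled line (-0.26 ± 0.054, adjusted p = 0.0011). The STING-labelled value of -0.13 ± 0.054 missed the threshold (adjusted p = 0.0563). It passed with DESeq2, with DESeq2 size factors, without a filter on low counts, and without replicate 1 or 2 of SCR under DMSO, replicate 2 of SCR after MPS1i (-0.20), replicate 2 of the STING-labelled line after MPS1i (-0.19) or replicate 2 of the DKO-labelled line under DMSO.

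**Figure D3:**
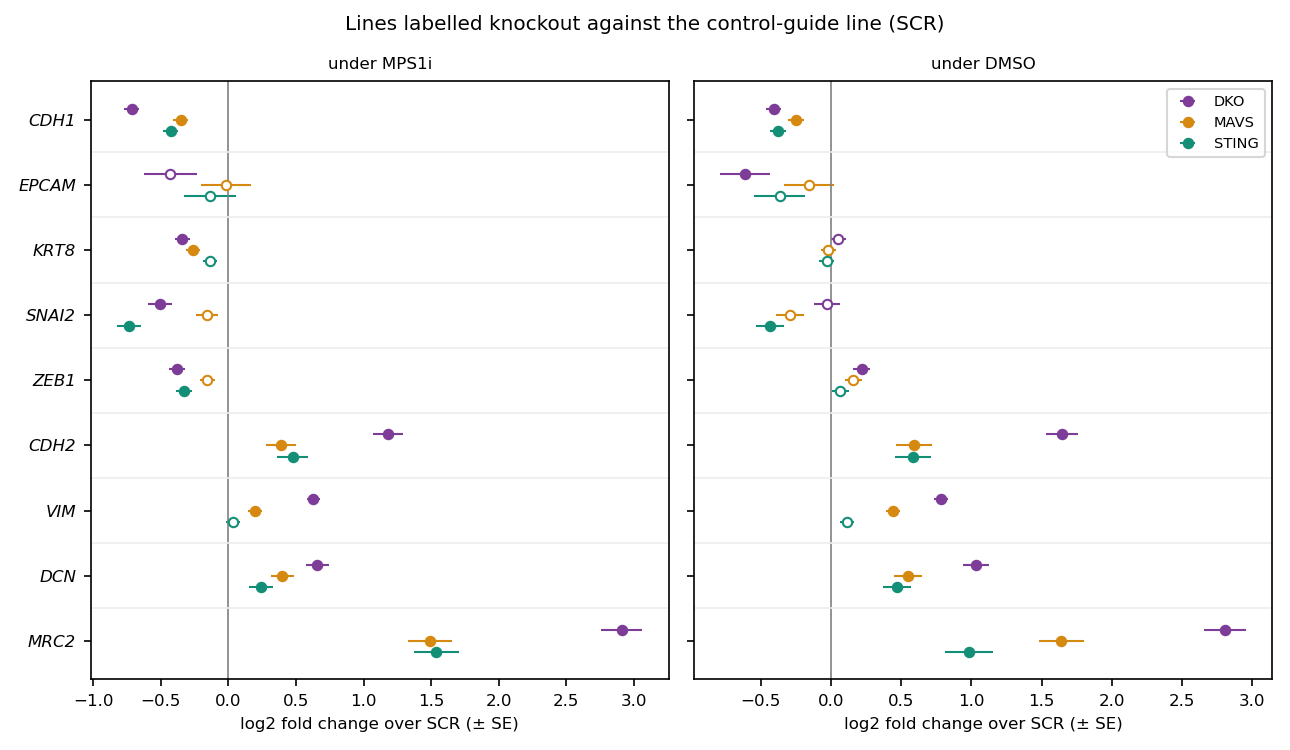
Log2 fold change of each labelled line over SCR (horizontal axes, ± SE) after MPS1i (left) and after DMSO (right) for 9 genes. Filled points passed an adjusted p of 0.05 and open points did not, and the 3 lines of a panel share the 2 SCR libraries. MRC2 in the DKO-labelled line lies farthest to the right, at 2.91 after MPS1i and 2.81 after DMSO, while SNAI2 and ZEB1 lie left of 0 after MPS1i.

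The ratio of CDH2 to CDH1, each per kilobase of exon, puts the cadherin switch into a single value per library and does not depend on library scaling. It was 0.792 and 0.718 after MPS1i in the DKO-labelled line, against 0.441 and 0.520 after DMSO. In the MAVS-labelled line it was 0.369 and 0.313 after MPS1i, against 0.192 and 0.227 after DMSO. In the STING-labelled line it was 0.403 and 0.359 after MPS1i, against 0.226 and 0.228 after DMSO, and in SCR 0.215 and 0.193, against 0.106 and 0.128. The pulse and the line both went with a higher ratio, and the treatments overlapped in no line. In the DKO-labelled line the pulse effect was called for CDH1 (log2 fold change -0.46) but not for CDH2 (0.19). DKO-labelled cells without the pulse had a higher ratio than any library of the other 3 lines, the pulsed ones included. E-cadherin transcript still outweighed N-cadherin transcript in all 16 libraries. The ratio was not tested on its own.

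**Figure D4:**
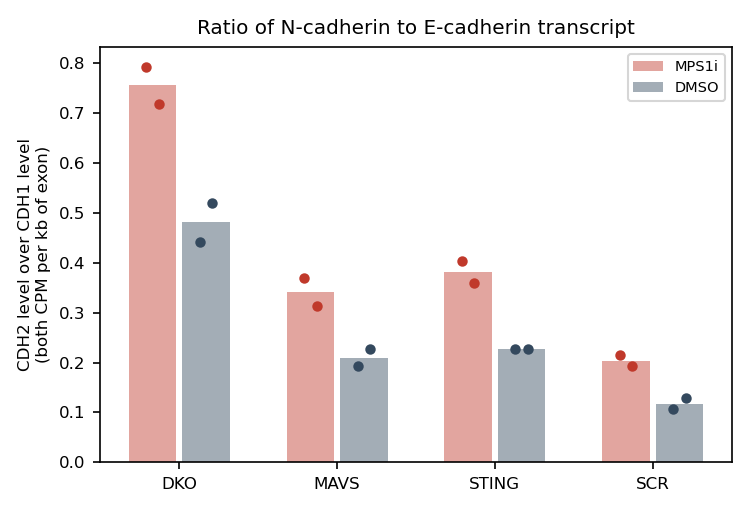
Ratio of the CDH2 level to the CDH1 level, both in CPM per kb of exon (vertical axis, from 0), by line, with MPS1i in red and DMSO in dark blue. Bars are means of 2 libraries and points are libraries. The ratio runs from 0.106 in an SCR library under DMSO to 0.792 in a DKO-labelled library after MPS1i.

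The third comparison tested whether the pulse effect itself differed between a labelled line and SCR (an interaction term). These tests share the 4 SCR libraries. ZEB1 rose less than in SCR in all 3 labelled lines, and in the DKO-labelled line the effects on KRT8, CDH2, SNAI2 and DCN were also less positive, while the fall of CDH1 was larger. There, 6 of 9 genes were called (background 28%), all with a negative difference (background 14.5%). In the MAVS-labelled line 2 of 9 were called (background 7.44%), and in the STING-labelled line 1 of 9 (background 19.5%).

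For ZEB1 the difference in log2 fold change was -0.60 ± 0.084 in the DKO-labelled line, -0.31 ± 0.084 in the MAVS-labelled line and -0.39 ± 0.085 in the STING-labelled line (adjusted p = 4.08e-06, 0.0195 and 0.0015). The MAVS-labelled call was lost without replicate 1 of SCR under DMSO (-0.23), replicate 2 of SCR after MPS1i (-0.27) or replicate 2 of the MAVS-labelled line under DMSO (-0.25) or after MPS1i (-0.29). SNAI2 differed in the DKO-labelled line, by -0.48 ± 0.13 (adjusted p = 0.00549). Its differences of 0.13 ± 0.13 in the MAVS-labelled line and -0.30 ± 0.13 in the STING-labelled line were not called. In the MAVS-labelled line, then, the difference was called for ZEB1 and not for SNAI2, and the factors were not tested against each other.

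In the DKO-labelled line the difference was -0.31 ± 0.080 for CDH1 and -0.39 ± 0.076 for KRT8 (adjusted p = 0.00464 and 0.000302). It was -0.46 ± 0.16 for CDH2 and -0.37 ± 0.13 for DCN (adjusted p = 0.0297 and 0.027). The calls of CDH1, KRT8, SNAI2 and ZEB1 in that line held without any 1 library, whereas those of CDH2 and DCN did not. In DESeq2 the adjusted p was 0.0834 for CDH2 and 0.0861 for DCN. CDH2 lost its call without replicate 1 of SCR under DMSO (-0.33) or after MPS1i (-0.42), and without replicate 2 of DMSO (-0.31) or replicate 1 (-0.51) or 2 (-0.44) of MPS1i in its own line. DCN lost its call without replicate 1 (-0.40) or 2 (-0.35) of SCR under DMSO, replicate 2 of SCR after MPS1i (-0.24), or replicate 2 of its own line under DMSO (-0.28) or after MPS1i (-0.35).

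VIM differed in the MAVS-labelled line, by -0.25 ± 0.072 (adjusted p = 0.034). That call was lost without any 1 of the MAVS-labelled libraries, and without replicate 1 of SCR under DMSO or replicate 2 of SCR after MPS1i, at -0.20 to -0.28. VIM in the DKO-labelled line gave -0.16 ± 0.072, which passed only without replicate 1 of SCR after MPS1i (-0.22) or replicate 1 of the DKO-labelled line after MPS1i (-0.23). KRT8 in the MAVS-labelled line sat at the threshold (-0.24 ± 0.076, adjusted p = 0.0513) and passed in DESeq2 (adjusted p = 0.02), without a filter on low counts (-0.22), with DESeq2 size factors, and without replicate 1 of SCR under DMSO (-0.33), replicate 2 of SCR after MPS1i (-0.31), either STING-labelled library after MPS1i or either DKO-labelled library under DMSO. EPCAM and MRC2 were called in none of the 3 lines. Their differences were 0.18 ± 0.27 and 0.10 ± 0.22 in the DKO-labelled line.

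**Figure D5:**
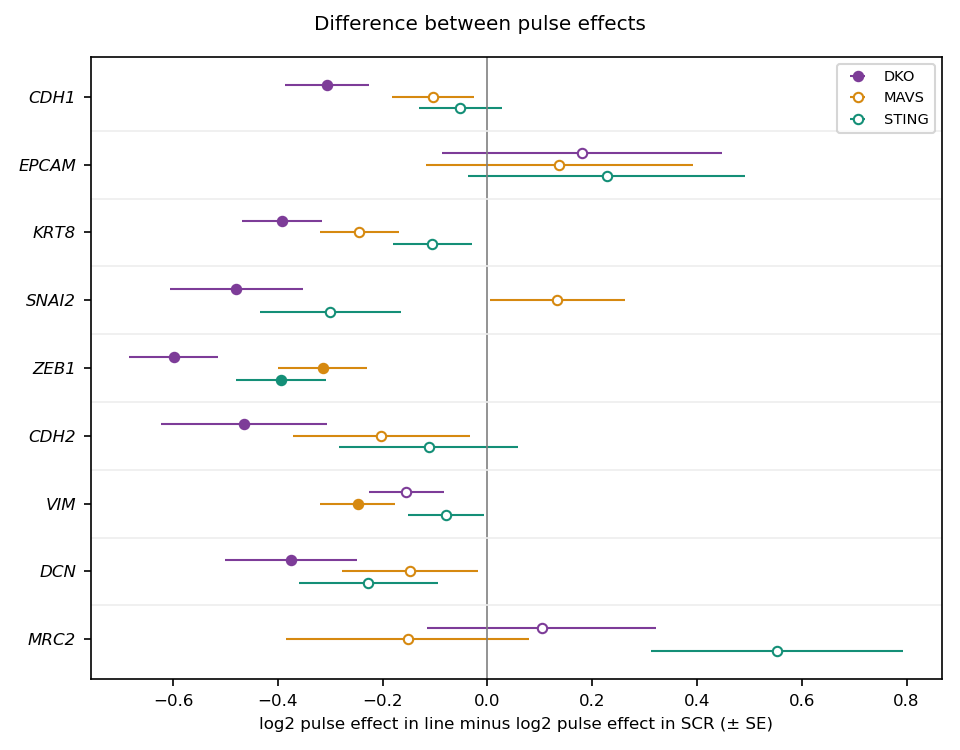
Log2 pulse effect in each labelled line minus the log2 pulse effect in SCR (horizontal axis, ± SE) for 9 genes. Filled points passed an adjusted p of 0.05 and open points did not. ZEB1 lies left of 0 in all 3 lines, from -0.60 to -0.31, and EPCAM lies at 0.14 to 0.23.

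Other genes of the same programmes were read from 4 lists. For the pulse, the shares of all tested genes were 6.53% higher and 8.22% lower in the DKO-labelled line, 17.1% higher and 16.3% lower in the MAVS-labelled line, 15.5% higher and 13.9% lower in the STING-labelled line and 26% higher and 24% lower in SCR. Of 14 tested EMT transcription factors other than SNAI2 and ZEB1, 3 rose and 1 fell after the pulse in the DKO-labelled line, while 8 rose and 1 fell in the MAVS-labelled line, in the STING-labelled line and in SCR. The median log2 fold change of the list was 0.27, 0.39, 0.52 and 0.80 in the DKO-labelled, MAVS-labelled and STING-labelled lines and SCR, against medians of all tested genes between 0.0024 and 0.031. In SCR the named factors were SOX9 (2.32 ± 0.16, adjusted p = 7.34e-12), ZEB2, the closest relative of ZEB1 (1.10 ± 0.069, adjusted p = 6.52e-13), and TCF4 (1.04 ± 0.061, adjusted p = 2.14e-13). For the DKO-labelled line they were FOXC2 (1.00 ± 0.11, adjusted p = 4.54e-07) and SOX9 (0.93 ± 0.17, adjusted p = 0.000326). FOXC2 averaged 14.5 ± 1.11 CPM after MPS1i, against 7.28 ± 1.39 CPM after DMSO there, and 16.5 ± 0.564 against 8.29 ± 0.116 CPM in SCR (SD, n = 2 each).

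Of 32 tested mesenchymal genes, 10 rose and 1 fell after the pulse in the DKO-labelled line, 16 rose and 2 fell in the MAVS-labelled line, 17 rose and 2 fell in the STING-labelled line, and 18 rose and 3 fell in SCR. Their medians were 0.13, 0.24, 0.33 and 0.42 in the same order. NT5E, the surface enzyme CD73 that makes adenosine, led in the DKO-labelled line and in SCR. It averaged 126 ± 9.84 CPM after MPS1i, against 69.1 ± 4.02 CPM after DMSO in the DKO-labelled line (0.86 ± 0.057, adjusted p = 4.96e-11), and 426 ± 13.99, against 108 ± 5.53 CPM in SCR (1.98 ± 0.054, adjusted p = 2.25e-20). Fibronectin (FN1) rose in SCR by 1.42 ± 0.054, its receptor subunit ITGA5 by 1.27 ± 0.070 and the secreted glycoprotein FSTL1 by 0.70 ± 0.046 (adjusted p = 2.56e-17, 5e-14 and 1.79e-12). LOXL2, a matrix cross-linking enzyme, rose in the DKO-labelled line by 0.50 ± 0.062 (adjusted p = 1.9e-06).

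Of 37 tested epithelial genes, 2 rose and 6 fell in the DKO-labelled line, 5 rose and 7 fell in the MAVS-labelled line, 7 rose and 7 fell in the STING-labelled line, and 10 rose and 8 fell in SCR, with medians of -0.053, -0.037, -0.0093 and -0.038. As shares of the list, the counts in the MAVS-labelled and STING-labelled lines and SCR lie within a few percentage points of those of all tested genes given above. The 8 calls of the DKO-labelled line came to 3 without replicate 2 of DMSO or of MPS1i, and to 1 without replicate 1 of MPS1i. DSP (desmoplakin), a desmosome protein, averaged 1009.7 ± 18.2 CPM after MPS1i, against 542 ± 5.83 CPM after DMSO in SCR (0.90 ± 0.045, adjusted p = 6.88e-15), beside rises of the transcription factor ELF3 (0.58 ± 0.058, adjusted p = 4.54e-09) and the claudin CLDN4 (1.07 ± 0.12, adjusted p = 7.54e-08). The junction molecule F11R fell (-0.71 ± 0.073, adjusted p = 9.55e-09). MAL2, a protein of apical transport, fell in the DKO-labelled line by 0.43 on the log2 scale (adjusted p = 5.76e-05), and the receptor ERBB3 by 0.27 (adjusted p = 0.00362), a call lost without replicate 1 of MPS1i (-0.21).

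Of 28 tested genes of TGF-beta signalling, 10 rose and 2 fell after the pulse in the DKO-labelled line, and 14 rose in each of the other 3 lines, with 3 that fell in the MAVS-labelled line, 1 in the STING-labelled line and 5 in SCR. Their medians were 0.11, 0.19, 0.21 and 0.22. The 12 calls of the DKO-labelled line came to 6 without replicate 1 of MPS1i. PMEPA1, a target and feedback inhibitor of the pathway, moved in opposite directions. It averaged 236 ± 9.59 CPM after MPS1i, against 151 ± 0.465 CPM after DMSO in the DKO-labelled line (0.65 ± 0.046, adjusted p = 1.36e-10), and 83.9 ± 0.970, against 135 ± 4.26 CPM in SCR (-0.69 ± 0.046, adjusted p = 3e-12). The co-receptor TGFBR3 rose in both, by 0.38 ± 0.052 and 0.72 ± 0.051 (adjusted p = 8.88e-06 and 6.57e-12). In SCR the effector SMAD3 rose by 0.82 ± 0.054 and SMAD2 fell (-0.58 ± 0.045; adjusted p = 1.87e-12 and 3.78e-11).

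Between the DKO-labelled line and SCR under DMSO, 1 of 37 epithelial genes was higher and 15 were lower, with a list median of -0.23. MAL2 averaged 33.05 ± 2.33 CPM in the DKO-labelled line and 97.5 ± 2.99 CPM in SCR (-1.56 ± 0.062, adjusted p = 3.62e-16). The tight junction protein OCLN (-1.05 ± 0.11), the adhesion receptor CXADR (-0.55 ± 0.055) and DSP (-0.48 ± 0.045) were also lower (adjusted p = 2.29e-08, 1.87e-08 and 6.72e-09). Of 32 mesenchymal genes, 21 were higher and 3 lower, with a median of 0.52. FN1 averaged 162 ± 3.26 CPM in the DKO-labelled line and 45.7 ± 0.347 CPM in SCR (1.82 ± 0.055, adjusted p = 1.37e-18), and the collagen gene COL6A2 (1.73 ± 0.082) and FSTL1 (1.24 ± 0.046) were higher too (adjusted p = 1.5e-14 and 1.03e-16). The shares of all tested genes were 15.8% higher and 15.3% lower.

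In the same comparison 4 of 14 EMT transcription factors were higher and 1 lower, ZEB2 by 0.59 ± 0.071, TWIST2 by 0.46 ± 0.10 and SOX9 by 0.75 ± 0.19, with FOXC1 at -0.34 ± 0.057 (adjusted p = 3.79e-07, 0.0011, 0.00267 and 3.65e-05). The SOX9 call was lost without replicate 1 of SCR (0.44). Of 28 TGF-beta genes, 13 were higher and 4 lower. The ligands TGFB2 (1.67 ± 0.10) and TGFB1 (1.00 ± 0.095) and the effector SMAD3 (0.43 ± 0.054) were higher, and the pseudoreceptor BAMBI, which blocks the pathway, was lower (-0.50 ± 0.054), with adjusted p of 1.87e-12, 8.02e-08, 9.12e-07 and 6.33e-08. Against SCR under DMSO, the MAVS-labelled line had 14 mesenchymal genes higher and 0 lower and 4 epithelial genes lower, and the STING-labelled line had 15 higher and 2 lower, with 10 epithelial genes lower. Without replicate 2 of SCR, the mesenchymal calls in the MAVS-labelled line came to 9 and the epithelial calls to 1, and the epithelial calls in the STING-labelled line came to 5, against 11 in either direction. The epithelial calls also came to 1 or 2 without replicate 1 or 2 of the MAVS-labelled line, and to 5 without either replicate of the STING-labelled line (7 in DESeq2). The shares of all tested genes were 3.98% higher and 2.57% lower in the MAVS-labelled line and 4.7% higher and 5.47% lower in the STING-labelled line. After MPS1i the lists were counted against SCR in the DKO-labelled, MAVS-labelled and STING-labelled lines, in that order. EMT transcription factors gave 3 higher and 8 lower, 0 and 4, and 2 and 6. Mesenchymal genes gave 23 higher and 3 lower, 10 and 2, and 9 and 6. Epithelial genes gave 5 and 17, 1 and 8, and 6 and 13, and TGF-beta genes 10 and 10, 8 and 2, and 10 and 4. Of all tested genes, 45.1%, 15.9% and 33.1% were called in either direction. The comparisons of a treatment share its SCR libraries.

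The interaction between the DKO-labelled line and SCR was counted over the same lists. Of 14 EMT transcription factors 7 had a smaller (more negative) effect and 0 a larger one. Of 32 mesenchymal genes 13 were more negative and 2 more positive, of 37 epithelial genes 10 and 5, and of 28 TGF-beta genes 7 and 7. List medians were -0.25, -0.22, -0.0059 and -0.090 in that order, against -0.014 for all tested genes. Of all tested genes, 14.5% were more negative and 13.5% more positive. The gene with the smallest adjusted p of each list was TCF4 (-1.02 ± 0.090), FN1 (-1.31 ± 0.075), DSP (-1.04 ± 0.064) and PMEPA1 (1.33 ± 0.065), with adjusted p of 1.64e-09, 3.74e-13, 1.51e-12 and 1.5e-14. TCF4 averaged 34.3 ± 1.12 CPM after MPS1i, against 34.1 ± 0.303 CPM after DMSO in the DKO-labelled line, and 66.5 ± 1.30, against 32.4 ± 0.346 CPM in SCR. In the STING-labelled line, 6 EMT factors were more negative and 1 more positive (list median -0.53). Mesenchymal genes gave 8 and 1 there, epithelial genes 5 and 2, and TGF-beta genes 2 and 6. The MAVS-labelled line gave 2 and 0, 4 and 1, 2 and 0, and 2 and 3 in the same order of lists. Of all tested genes, 19.5% and 7.44% were called in either direction in the STING-labelled and MAVS-labelled lines.

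Finally, the genes whose pattern over the 8 group means was closest to the 3 members with the widest range were listed, by the root mean square distance of centred log2 CPM, over 13882 other genes. For MRC2, with a range of 2.95 on the log2 scale, HLA-DRA was among the closest (distance 0.302). For CDH2, with a range of 1.81, the closest were TSPAN5 (0.078), MAMDC2 (0.110) and PFKFB3 (0.116). For DCN, with a range of 1.42, the closest were ANTXR2 (0.0731), TUBB4A (0.0871) and HSPA2 (0.0912). The 8 group means share libraries and depth, so these distances are a description.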

How the data were processed

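RNA from 16 libraries of NCI-H1944 lines was made into stranded poly(A) libraries, per the labels' protocols. The authors deposited raw counts per gene. Per the submitters' processing notes, the tools were Trim Galore, Trimmomatic, cutadapt, STAR and featureCounts with GRCh38/hg38; versions and the strand setting are not given in the sources used here. From the counts, 17950 of 60612 genes passed filterByExpr (minimum count 10, minimum total 15) and were fitted together in edgeR 4.0.16 (R 4.3.3, limma 3.58.1) with TMM scaling, 1 mean per group and robust quasi-likelihood tests with 8 residual degrees of freedom. P-values were adjusted by Benjamini-Hochberg over all tested genes in each of 13 contrasts, with a threshold of 0.05. SE is the log2 fold change over the root of the F statistic. Total counts ran from 19893784 to 49769938, and counting error limits mainly EPCAM, MRC2 and KRT19. CPM per kb used merged exon length. The fit was tested on simulated data.

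The members and lists were chosen with earlier results of these data known. The genes named are the members and, of each list, those with the smallest adjusted p: 4 for the pulse in SCR and for the DKO-labelled line against SCR under DMSO, 2 for the pulse in the DKO-labelled line and 1 for its interaction. Likeness of pattern used log2(CPM + 0.1) over genes averaging 1 CPM or more, for the 3 members of widest range. Some genes that these rules name are not reported here. Alternatives were DESeq2 1.42.0, its size factors in edgeR, no filter on low counts, a replicate block and leaving out each library. Replicates were not near-duplicates, with chi-square per gene of 2.80 to 9.44.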

Additional observations from a re-analysis of the deposited data

Results flagged for a closer look

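These values are differences between the pulse effect (log2 of MPS1i over DMSO) in a labelled line and that in SCR, each past an adjusted p of 0.05 in the interaction test. In the DKO-labelled line they were -0.31 for CDH1, -0.39 for KRT8, -0.46 for CDH2, -0.48 for SNAI2, -0.60 for ZEB1 and -0.37 for DCN. Among list genes of that line they were -1.04 for DSP, -1.31 for FN1, -1.02 for TCF4 and 1.33 for PMEPA1. The same list genes were called in the same direction in the other labelled lines. In the MAVS-labelled line they gave -0.22 for DSP, -0.57 for FN1, -0.50 for TCF4 and 0.59 for PMEPA1. In the STING-labelled line they gave -0.24, -1.03, -0.51 and 0.97 in that order. For ZEB1 the difference was -0.31 in the MAVS-labelled line and -0.39 in the STING-labelled line, and for VIM it was -0.25 in the MAVS-labelled line. All of them share the 4 SCR libraries.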

How the results depend on the processing

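Over 117 log2 fold changes of the 9 genes in 13 contrasts, direction and side of the threshold were kept in 111 with DESeq2, 115 with DESeq2 size factors, 113 without a filter on low counts and 117 with the replicate number as a block. VIM after the pulse in the DKO-labelled line was -0.0039 without the filter, against 0.0033. The difference in log2 CPM between the replicates of a group was taken for each gene and correlated between groups. The correlation was -0.16 to 0.21 (median 0.018) over 28 group pairs, 4 of them over 0.1, so replicate numbers were not taken to pair libraries.

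Leaving out 1 library at a time, the genes called ranged from 1418 to 3152 (DKO-labelled line) and 3403 to 5828 (STING-labelled line) for the pulse, 344 to 1681 (MAVS-labelled line) and 913 to 2384 (STING-labelled line) against SCR under DMSO, 1769 to 3361 for the MAVS-labelled line against SCR after MPS1i, and 858 to 1707 for its interaction. Of the 9 genes, the calls ranged from 2 to 4 for the pulse in the DKO-labelled line, 3 to 5 for the MAVS-labelled line under DMSO and 0 to 3 for its interaction. Values that were not called and changed sign were, for the pulse in the DKO-labelled line, VIM (-0.050 to 0.066) and MRC2 (-0.23 to 0.045). Under DMSO against SCR they were KRT8 (-0.023 to 0.13) and SNAI2 (-0.059 to 0.0068) in the DKO-labelled line, EPCAM (-0.38 to 0.086) and KRT8 (-0.093 to 0.065) in the MAVS-labelled line, and KRT8 (-0.11 to 0.051) and ZEB1 (-0.014 to 0.15) in the STING-labelled line. After MPS1i they were EPCAM (-0.24 to 0.16) in the MAVS-labelled line and VIM (-0.024 to 0.082) in the STING-labelled line. Among interactions they were EPCAM (-0.060 to 0.41, -0.10 to 0.36 and -0.013 to 0.45 in the DKO-labelled, MAVS-labelled and STING-labelled lines), MRC2 (-0.043 to 0.26) in the DKO-labelled line and CDH2 (-0.24 to 0.025) in the STING-labelled line. The cause was not tested. With 2 libraries per group, small effects and low genes such as EPCAM are the least certain.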
